A study of Mus musculus with 4 samples.

Results

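The genes described here are Exoc3l4, Tnfaip2 and Gm266, which lie next to each other on mouse chromosome 12, together with Exoc3 on chromosome 13 and Exoc3l2 on chromosome 7. They were chosen as every probe set whose only gene symbol in the platform annotation was 1 of these 5 names. That gave 10 probe sets of 45037 on the arrays that were not controls, and 5 genes of 18193 with a symbol of their own. The choice was made with the difference between treated and control arrays known, so the size of that difference in these genes is described and not tested. The RNA came from T29, a mouse thymic lymphoma cell line, on 2 arrays of cells given the solvent DMSO and 2 arrays of cells given MRK003, an inhibitor of gamma-secretase (GSI). The labels write the dose as 5 mM for 36 h, in 1 treatment text that is shared by controls and treated samples, and only the titles tell the groups apart. No genetic change is named for either group, and nothing says whether the replicates were separate cultures. All values are expression on the log2 scale as deposited, made by RMA, and differences are GSI minus DMSO on that scale.

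The exocyst is a protein complex that holds secretory vesicles at the plasma membrane before they fuse, and Exoc3 encodes its Sec6 subunit. Tnfaip2, also called M-Sec, and the genes named Exoc3-like encode proteins related to Sec6. Tnfaip2 is known as a gene induced by tumour necrosis factor (TNF), and its protein, acting with the small GTPase RalA, promotes thin membrane protrusions that join cells. Gm266 is a protein-coding gene model without a descriptive name. Gamma-secretase releases the intracellular part of Notch receptors, which regulates transcription in developing T cells and in many T cell tumours.

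The 3 adjacent genes were all lower with GSI, by 2.81-fold to 7.49-fold on the probe set that stands for each, the one with the highest mean over the arrays, while Exoc3 differed little and Exoc3l2 was too dim to compare. Exoc3l4, a Sec6 relative, measured 9.26 and 8.97 with DMSO and 6.15 and 6.26 with GSI. Both treated arrays lay far below both controls, by 2.71 at the nearest pair of values. The difference was -2.91 (SE 0.13), which is 7.49-fold lower. With bulk RNA, fewer cells that express a gene and less of its RNA per cell cannot be told apart.

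Tnfaip2 had 3 probe sets, and all of them were lower on both GSI arrays than on both DMSO arrays. The probe set with the name ending in x_at measured 8.24 and 8.33 with DMSO against 5.40 and 5.42 with GSI, 7.36-fold lower. The probe set that stands for the gene measured 7.56 and 7.63 with DMSO against 6.14 and 6.08 with GSI, 2.81-fold lower. The dimmest measured 5.20 and 5.18 with DMSO against 4.6 and 4.73 with GSI, 1.44-fold lower. The groups were apart on each probe set, but the sizes were not alike. The difference was -2.88 (SE 0.093) on the x_at probe set and -1.49 (SE 0.093) on the one that stands for the gene, -1.39 apart on the log2 scale. In Affymetrix naming, x_at marks a probe set whose probes may also bind other transcripts, and the part of this in the gap was not tested. Which of these 2 stands for the gene is nearly a tie, since their means over the 4 arrays were both 6.85.

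Gm266 repeated this pattern on its brighter probe set. It measured 10.42 and 10.33 with DMSO and 7.80 and 8.0 with GSI, 5.55-fold lower, and the groups were apart by 2.33. The dimmer probe set measured 6.03 and 5.63 with DMSO and 5.27 and 5.17 with GSI, 1.53-fold lower. The groups did not overlap on it either, although the DMSO arrays lay farther apart there (SD 0.28, n = 2) than on the brighter one (SD 0.062, n = 2). RMA compresses differences of dim probe sets, and its part in the smaller differences on the dim probe sets of Tnfaip2 and Gm266 was not tested.

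**Figure D1:**
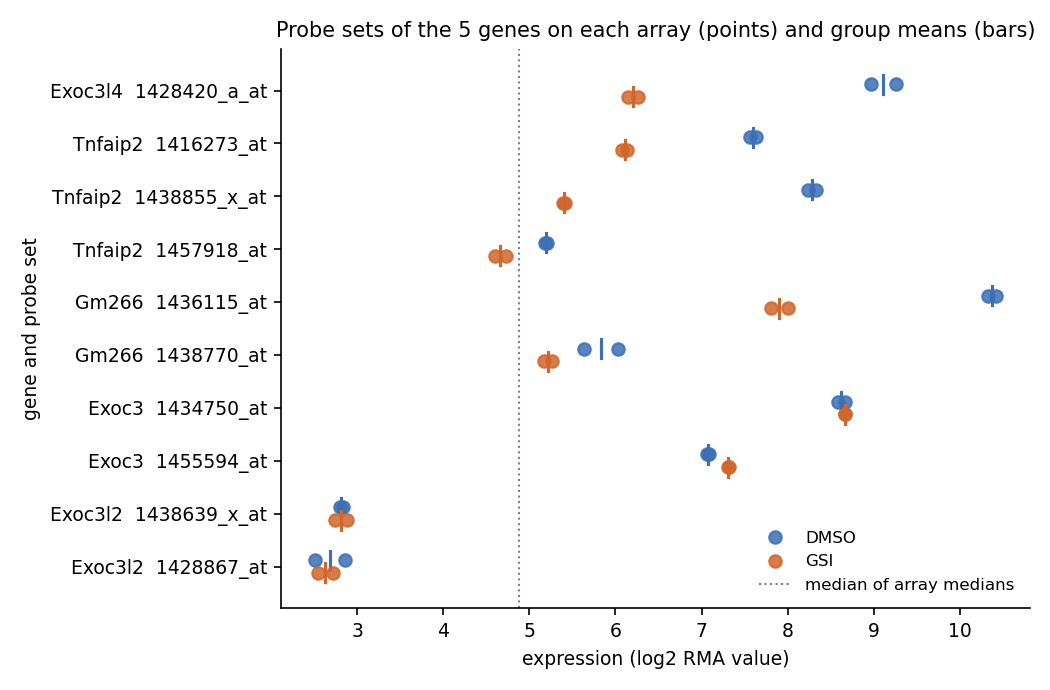
Expression (log2 RMA value) of the 10 probe sets of the 5 genes on each array. Points are single arrays, blue for DMSO and orange for GSI, vertical bars are group means, and the dotted line is the median of the array medians (4.88). All 6 probe sets of Exoc3l4, Tnfaip2 and Gm266 have both GSI points left of both DMSO points, while those of Exoc3 and Exoc3l2 do not.

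The 3 lower genes share a place in the genome, so the sequence at their starts is shown. RefSeq (GRCm38.p6) gave a promoter window of 300 bases, from 250 before to 50 after a transcript start, for all 5 genes, and 2 overlapping windows for Exoc3l4, of which the first is printed. Capitals mark TGGGAA, the core of the motif bound by RBPJ, the DNA-binding partner of the released Notch part, on either strand. Exoc3l4 is at chr12:111417180-111417479 (plus strand), Tnfaip2 at chr12:111442411-111442710 (plus strand) and Gm266 at chr12:111485774-111486073 (minus strand), each written 5′ to 3′ on its own strand.
Exoc3l4: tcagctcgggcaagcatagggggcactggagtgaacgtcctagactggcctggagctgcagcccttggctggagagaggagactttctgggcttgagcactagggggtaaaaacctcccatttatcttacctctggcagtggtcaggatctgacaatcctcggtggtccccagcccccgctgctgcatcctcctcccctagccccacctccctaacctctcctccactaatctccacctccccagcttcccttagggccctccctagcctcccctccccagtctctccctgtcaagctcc
Tnfaip2: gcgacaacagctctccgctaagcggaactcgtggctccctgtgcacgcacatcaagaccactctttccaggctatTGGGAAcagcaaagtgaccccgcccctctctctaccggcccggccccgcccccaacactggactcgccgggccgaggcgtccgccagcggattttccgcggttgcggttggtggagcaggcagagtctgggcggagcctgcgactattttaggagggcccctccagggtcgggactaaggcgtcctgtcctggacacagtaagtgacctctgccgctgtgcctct
Gm266: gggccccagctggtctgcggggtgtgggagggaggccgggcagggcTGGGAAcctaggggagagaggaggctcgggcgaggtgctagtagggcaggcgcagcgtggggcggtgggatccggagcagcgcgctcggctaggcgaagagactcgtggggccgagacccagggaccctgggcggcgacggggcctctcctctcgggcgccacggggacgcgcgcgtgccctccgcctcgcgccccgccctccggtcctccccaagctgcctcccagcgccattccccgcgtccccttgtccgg

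The windows of Tnfaip2 and Gm266 each held TGGGAA once, beginning 175 and 204 bases before the start. Neither window of Exoc3l4, nor that of Exoc3 or Exoc3l2, held these letters. Of 32851 promoter windows of the same length, 25.6% held TGGGAA on either strand. The GC box GGGCGG, a common promoter element, occurred 3 times each in Tnfaip2, Gm266 and Exoc3l2, once in Exoc3 and 0 times in Exoc3l4, against 35.7% of all windows with at least 1. The kappaB consensus, the motif of the TNF-activated factor NF-kappaB, occurred once each in Tnfaip2 and Exoc3l2 and in none of Exoc3l4, Gm266 and Exoc3, against 8.46% of all windows. No window of the 5 genes held TATAAA, which 13.6% of all windows held. In Tnfaip2 and Gm266, TGGGAA overlapped no match to the other motifs. The printed windows had a GC content of 60.7% in Exoc3l4, 64.3% in Tnfaip2 and 76% in Gm266. Those of Exoc3 and Exoc3l2 had 57% and 63%. Over all windows the median was 52.7%, with quartiles at 45.7% and 61.7%. These matches describe letters in a window and are not evidence of binding.

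Exoc3, the exocyst subunit itself, differed little. Its brighter probe set measured 8.66 and 8.59 with DMSO and 8.67 and 8.67 with GSI, a difference of 0.045 (SE 0.092). The other measured 7.09 and 7.06 with DMSO and 7.30 and 7.32 with GSI, a difference of 0.24 (SE 0.089), with both GSI arrays above both controls. Exoc3l2, a Sec6 relative, was near the lower end of the table on both probe sets. Its x_at probe set measured 2.80 and 2.83 with DMSO and 2.74 and 2.88 with GSI. Its other probe set measured 2.52 and 2.85 with DMSO and 2.72 and 2.55 with GSI. These values overlap between the groups, and the lowest value in the table was 1.8, so a change in Exoc3l2 was not detectable here.

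In limma across all 45037 probe sets, 4 of the 10 were called lower at a Benjamini-Hochberg adjusted p under 0.05, and 0 were called higher. Over all probe sets 0.446% were called lower and 0.948% higher. The 4 were that of Exoc3l4, the brighter one of Gm266, and the 2 brighter ones of Tnfaip2. Both GSI arrays lay below both DMSO arrays on 6 of the 10 probe sets, against 25.2% of all probe sets. In the fit with 1 probe set per gene, 3 of the 5 genes were called lower, against 1.56% of all genes (4.12% in either direction). With either DMSO array left out 1 of these 3, Exoc3l4, was called, and with either GSI array left out 0 were, in fits that called 6 and 0 genes in all. Ordered from the most negative difference, Exoc3l4 was at place 5, Gm266 at place 12 and Tnfaip2 at place 32 of 18193 genes. The genes were chosen from this contrast, so these counts describe the choice.

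**Figure D2:**
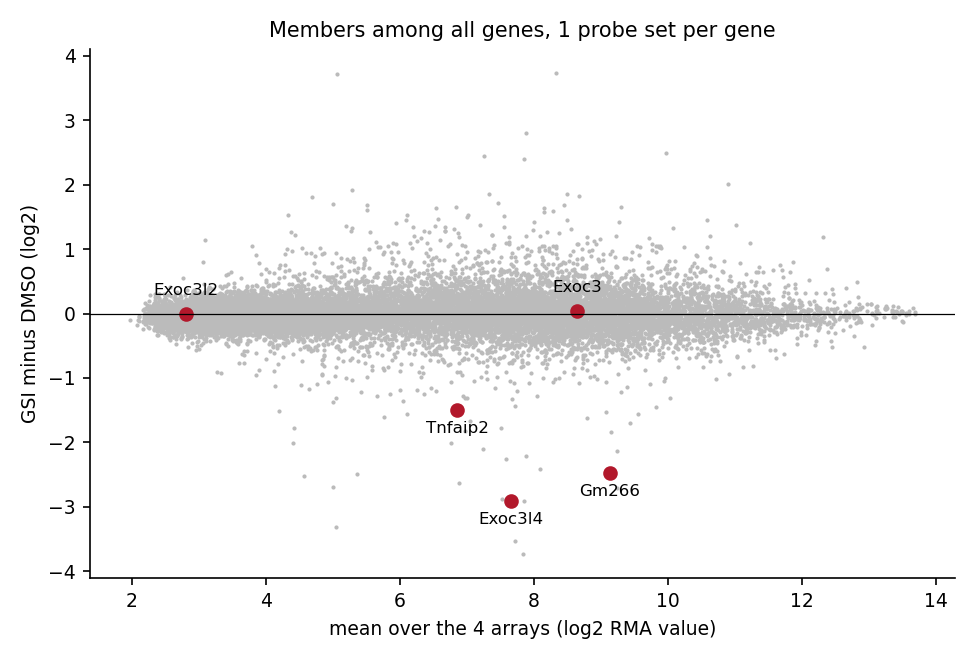
Difference between GSI and DMSO (log2, vertical) against the mean over the 4 arrays (log2 RMA value, horizontal) for 18193 genes, 1 probe set per gene. Each grey point is a gene and the 5 genes described here are red. Exoc3l4 (-2.91), Gm266 (-2.47) and Tnfaip2 (-1.49) lie below the main body of points, and Exoc3 (0.045) and Exoc3l2 (-0.0038) lie inside it.

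The genes on either side of the 3 differed by less than any of the 3 on its representing probe set. The dim probe sets of Tnfaip2 (-0.53) and Gm266 (-0.61) lay within the range of the neighbours. RefSeq placed 0 other protein-coding genes between Exoc3l4, Tnfaip2 and Gm266. Of the 10 named protein-coding genes on each side, 19 were measured, 1 rose, 1 fell and 17 did not pass (limma over all genes, adjusted p under 0.05), against 2.56% of all genes higher and 1.56% lower. At an unadjusted p below 0.05, 1 was higher and 6 lower, and the share of all genes at that cut-off was not counted. The median difference of the neighbours was -0.13, and that of all genes was -0.012. Lbhd2, next to Exoc3l4, measured 4.62 and 4.46 with DMSO and 4.75 and 4.52 with GSI, with overlapping groups. Eif5, a translation initiation factor gene next to Gm266, measured 12.06 and 12.16 with DMSO and 11.76 and 11.72 with GSI, a difference of -0.37 (SE 0.087, adjusted p = 0.0800 in limma). All 5 probe sets of Eif5 were lower on both GSI arrays than on both DMSO arrays, with differences from -0.44 to -0.26.

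Farther out on the side of Exoc3l4, Cdc42bpb differed by 0.078, Amn by -0.13, Rcor1, a corepressor gene, by 0.10 and Ankrd9 by -0.13, and none of them passed. On the side of Gm266, the kinase gene Mark3 differed by -0.16, the creatine kinase gene Ckb by 0.14 and the chaperone cofactor gene Bag5 by -0.26, and none of them passed either. Trmt61a, a tRNA methyltransferase gene, fell by 0.68 (SE 0.12, adjusted p = 0.0463 in limma), from 8.03 and 7.74 to 7.13 and 7.28. Ppp1r13b, encoding a p53-binding protein, rose by 0.68 (SE 0.11, adjusted p = 0.0388 in limma), from 7.38 and 7.20 to 8.07 and 7.86. All 33 probe sets of the neighbours differed by between -0.68 and 0.68. Tested among all probe sets, 0 of these 33 passed limma, against 0.446% of all probe sets lower and 0.948% higher. Neither Trmt61a nor Ppp1r13b passed there, with the replicate number as a block, or without any 1 of the 4 arrays. Eif5 was called lower with dim genes left out and with an intensity trend and robust prior. Cinp, named after its values were seen, differed by -0.54 (adjusted p = 0.0847 in limma), from 8.97 and 8.80 to 8.20 and 8.49, and was called lower in the same settings and when probe sets were averaged.

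**Figure D3:**
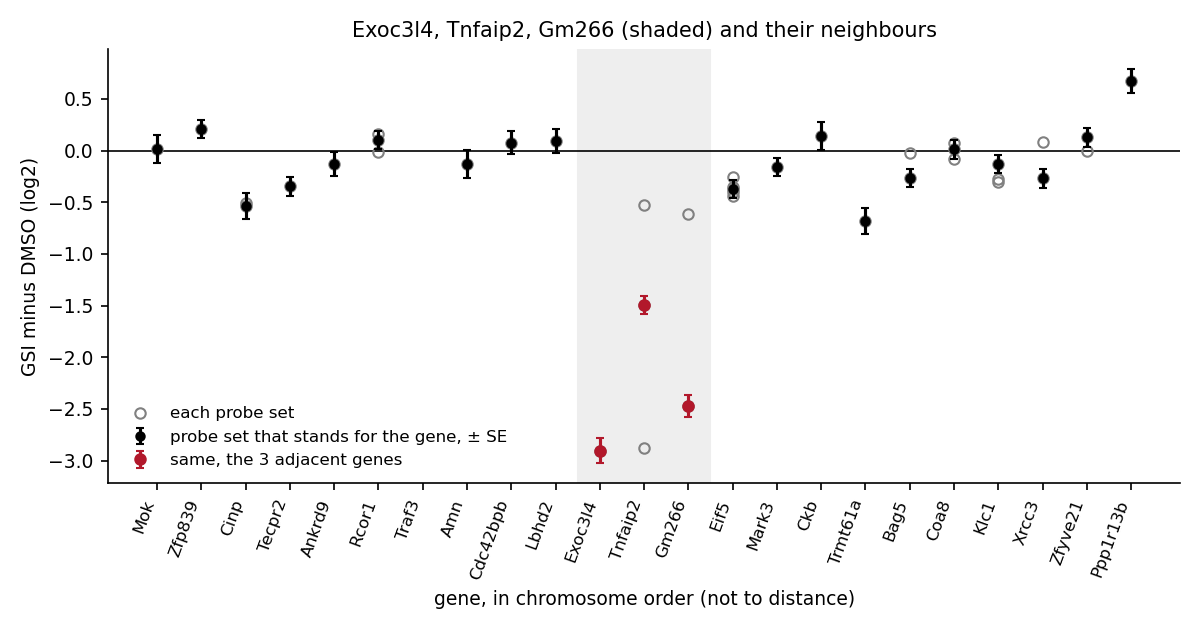
Difference between GSI and DMSO (log2) for Exoc3l4, Tnfaip2 and Gm266 (shaded) and the 10 named protein-coding genes on each side, in chromosome order but not to distance. Filled points are the probe set standing for a gene with its SE from limma, open circles are all probe sets, and Traf3 has no point because it was not analysed here. The shaded genes reach -2.91, and the neighbours lie between -0.68 and 0.68. The dim probe sets of Tnfaip2 (-0.53) and Gm266 (-0.61) lie within that range.

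Profiles over the 4 arrays, each centred on its own mean, were compared by their root mean square distance in log2 units. Exoc3l4 and the x_at probe set of Tnfaip2 were 0.14 apart, and Exoc3l4 and Gm266 on its brighter probe set 0.23. The probe set that stands for Tnfaip2 was 0.72 from Exoc3l4. The 5 genes nearest to Exoc3l4 among 18193 were Afdn, encoding the junction protein afadin (0.18), Il2ra, the interleukin-2 receptor alpha chain gene (0.21), Lhfp (0.21), Spsb4 (0.21) and Olfm4, encoding olfactomedin 4 (0.22). Gm266 came at place 7 and Tnfaip2 at place 30. The genes nearest to the probe set that stands for Tnfaip2 were Agfg1 (0.054), Lgals3, encoding galectin-3 (0.068), Itga9, an integrin alpha chain gene (0.076), Arhgef10l (0.095) and AW011738 (0.11). Counted from that Tnfaip2 probe set, Gm266 came only at place 381 and Exoc3l4 at place 7089. With 4 arrays in 2 groups, these distances mostly compare the size of the difference.

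Most exocyst subunits were near their control levels. All 9 listed subunits, Exoc3 among them, were measured. Of these, 1 rose, 0 fell and 8 did not pass, against 2.56% of all genes higher and 1.56% lower. Unadjusted p-values in limma were below 0.05 for 2 higher and 0 lower subunits. The median difference was 0.045 beside -0.012 for all genes. That median is the value of Exoc3 itself, a chosen gene, so it is not a background apart from the chosen genes. Exoc4, the subunit called Sec8, measured 8.76 and 8.80 with DMSO and 9.26 and 9.22 with GSI. Both treated arrays were above both controls, a rise of 1.37-fold (adjusted p = 0.0460 in limma). The differences of the other subunits ran from -0.21 for Exoc6 to 0.23 for Exoc7. Exoc4 did not pass among all probe sets, with the replicate number as a block, or without any 1 of the 4 arrays. A further Sec6 relative outside the chosen set, Exoc3l, differed by 0.30 (adjusted p = 0.108 in limma), from 5.80 and 5.79 to 6.09 and 6.09.

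Small GTPases, those of the Ral and Rab families among them, and their regulators recruit and control the exocyst. Of 22 listed genes 21 were measured and 0 passed limma, against 4.12% of all genes in either direction. At an unadjusted p below 0.05, 3 were higher and 3 lower, and the median difference was 0.082. Rala, whose product acts with the Tnfaip2 protein, measured 8.92 with DMSO and 8.98 with GSI as group means. Rala was chosen for mention after its value was seen. Ralgds, an activator of Ral, differed by 0.48 (adjusted p = 0.0511 in limma) and the vesicle motor gene Myo5a by -0.59 (adjusted p = 0.0572 in limma). Between 2 and 4 genes of this list passed in the alternatives other than the test of every probe set, the block, the minimum of 2-fold and the left-out arrays, with Ralgds and Myo5a in each of them.

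The SNARE and Munc18 genes, which carry out fusion after tethering, had 13 of 14 listed genes measured, of which 1 rose and 12 did not pass, against 2.56% of all genes called higher. Unadjusted p-values in limma were below 0.05 for 4 higher and 0 lower genes of this list. The median difference was 0.21 beside -0.012 for all genes, and 12 of the 13 means were higher, as were 47.0% of all gene means. Snap23, a SNARE of the plasma membrane, rose 1.38-fold, from 7.83 and 7.86 to 8.36 and 8.27 (adjusted p = 0.0475 in limma). Like Exoc4, Snap23 did not pass among all probe sets, with the block, or without any 1 array, and nor did it when its probe sets were averaged.

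Other tethering complexes have related rod-like subunits, those of the Golgi (COG), of endosome recycling (GARP) and of the endoplasmic reticulum (Zw10, Rint1 and Nbas). They gave 0 of 15 genes past limma, against 4.12% of all genes in either direction. At an unadjusted p below 0.05, 1 was higher and 0 lower. Their median difference was 0.039, with Cog1 at 0.29 (adjusted p = 0.136 in limma) and Cog2 at -0.16 (adjusted p = 0.367 in limma). Of 6 genes tied to membrane protrusions, 0 passed limma, against the same share of all genes. At an unadjusted p below 0.05, 0 were higher and 1 lower, and the median was -0.025. Eps8, an actin-capping protein gene, differed by -0.32 (adjusted p = 0.132 in limma) and the filamin gene Flna by 0.36 (adjusted p = 0.268 in limma).

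Tnfaip2 is known as a TNF target, and other genes of the TNF and NF-kappaB response are given beside it. Of 23 measured, 3 rose, 0 fell and 20 did not pass, against 2.56% of all genes higher and 1.56% lower. Unadjusted p-values in limma were below 0.05 for 7 higher and 1 lower gene. The median difference was 0.087 beside -0.012 for all genes. Nfkbia, encoding an NF-kappaB inhibitor, measured 10.01 and 9.98 with DMSO and 10.87 and 10.70 with GSI, and rose 1.73-fold (adjusted p = 0.0152 in limma). Tnfaip3, encoding the NF-kappaB inhibitor A20, rose 1.62-fold (adjusted p = 0.0322 in limma), and Birc3, an inhibitor of apoptosis gene, rose 1.46-fold (adjusted p = 0.0455 in limma). None of the 3 passed without any 1 of the arrays or with the block, and Tnfaip3 and Birc3 did not pass among all probe sets or with their probe sets averaged. Nfkb2, an NF-kappaB subunit gene named after its values were seen, differed by -0.39 (adjusted p = 0.0823 in limma) and was called lower in 4 of the alternatives. Tnfrsf1a, named in the same way, differed by 0.40 (adjusted p = 0.0640 in limma). It was called higher with probe sets averaged, with dim genes left out and with the trend and robust prior. That last setting also called Nfkbie and Tnip1 higher. Whether Tnfaip2 differs from these genes was not tested, since it was chosen for its difference.

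**Figure D4:**
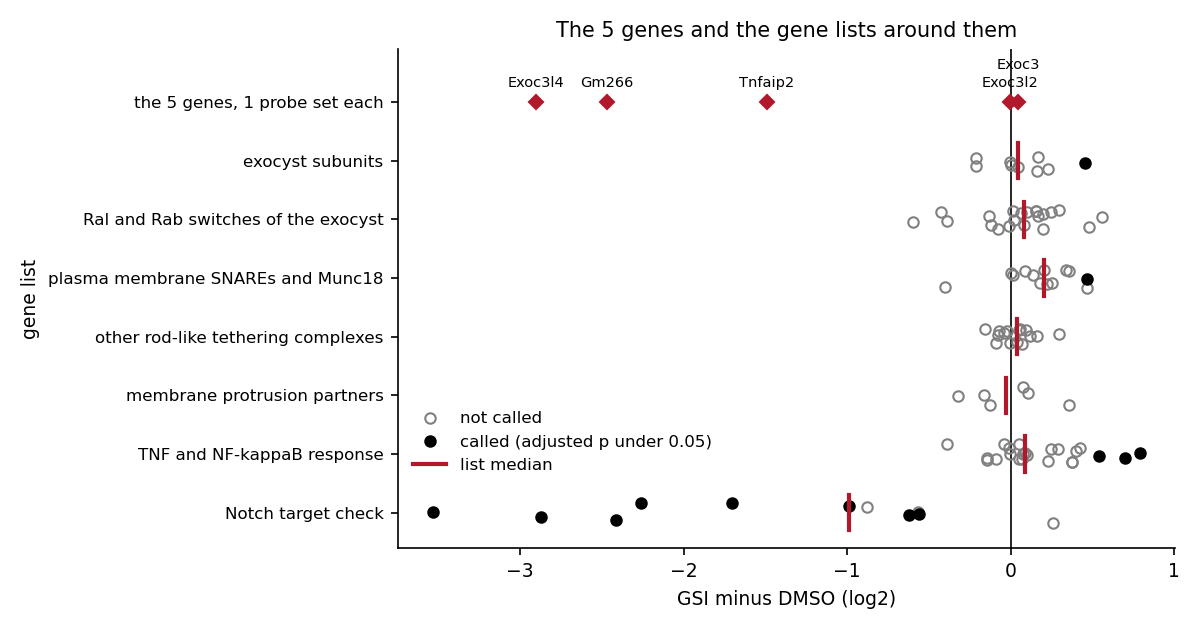
Difference between GSI and DMSO (log2) for the 5 genes described here (diamonds, top) and for each gene of 7 lists (circles), 1 probe set per gene. Filled circles passed limma at an adjusted p under 0.05, and red bars are list medians, which run from -0.025 to 0.21 in the first 6 lists and reach -0.99 for known Notch targets.

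As a check of the treatment, 8 of 11 known Notch targets fell and 0 rose, against 1.56% of all genes lower. The list was chosen with earlier results of these data known, so the check is not independent of them. The means of 10 were lower. That of Hes5, named after its values were seen, was higher (0.26) but did not pass. The largest falls were -3.53 for Dtx1, -2.87 for Il2ra, -2.42 for Nrarp and -2.26 for Hes1. Array medians lay between 4.86 and 4.89, and the arrays correlated at 0.991 to 0.997 across probe sets. T lineage markers were bright, with list medians of 11.05 to 11.15 per array over 10 measured genes, of which Cd2 and Cd5 had dim probe sets. Thy1 rose (0.53), Cd3g (-0.47) and the Notch target Ptcra (-1.70) fell, and 7 did not pass. Of all genes, 2.56% were called higher and 1.56% lower. The summed T lineage level on the linear scale was 25234 to 25530 with DMSO and 24062 to 24670 with GSI, without overlap. Of the markers of other cell types, 0 of 9 myeloid, 0 of 4 B lineage and 0 of 5 epithelial genes passed limma. The share of all genes in either direction was 4.12%. At an unadjusted p below 0.05, 1 myeloid gene was higher, 1 epithelial gene was lower and 0 B lineage genes differed. The 2 genes, named after their values were seen, were Itgam (1.05, adjusted p = 0.0561 in limma) and Cdh1 (-1.51, adjusted p = 0.111 in limma). Epithelial markers summed on the linear scale to 120 to 148 with DMSO and 111 to 117 with GSI, without overlap. B lineage markers summed to 73.2 to 77.9 with DMSO and 72.3 to 77.0 with GSI.

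Tnfaip2 is also known from myeloid and endothelial cells, so those markers are given beside it. Of 7 endothelial markers 1 rose, Pecam1 (0.64), and 0 fell, against 2.56% of all genes higher and 1.56% lower. Among the 7, 6 lay below the median of the arrays. Their summed level on the linear scale was 196 to 211 with DMSO and 269 to 275 with GSI, and that of the 6 without Pecam1 was 75.6 to 89.4 and 78.2 to 89.0. The myeloid sum was 254 to 258 with DMSO and 236 to 267 with GSI, and 7 of its 9 genes lay below the array median. Of 5 fibroblast markers 1 fell, Pdgfrb (-1.28), against 1.56% of all genes lower, and 4 lay below the array median. The sums of the 5 were 440.3 to 494 with DMSO and 218 to 227 with GSI. Without Pdgfrb the sums were 51.8 to 57.7 with DMSO and 46.9 to 59.1 with GSI. The part of these markers in the lower values of Exoc3l4, Tnfaip2 and Gm266 was not tested.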

How the data were processed

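The deposited values are log2 expression, 1 per probe set and array, made by the authors with RMA per the submitters' processing notes; no version is named. RMA corrects background, normalizes between arrays and summarises probes, and compresses differences of dim probe sets. Of 45101 probe sets, 64 controls were left out, 34945 had 1 gene symbol in the platform annotation and 34741 of those were matched to RefSeq names (GRCm38.p6). Each gene was represented by its brightest such probe set on average. The contrast of GSI and DMSO was fitted in limma 3.58.1 under R 4.3.3 (lmFit, eBayes, group as the only term, two-sided, Benjamini-Hochberg over all 18193 genes or all 45037 probe sets), and genes were called at an adjusted p under 0.05. SE is that of the fit. With 2 arrays per group, p-values reflect only how far these samples spread, possibly for technical reasons, and the number of arrays limits the precision.

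The genes and lists were chosen with earlier results of these data known. Named genes were all members, up to 4 called genes per list with the largest change, or the 2 with the smallest p where none was called. The 5 nearest measured neighbours on each side, any called neighbour and the 5 most similar profiles to Exoc3l4 and Tnfaip2 were also named. Other genes are marked in the text. Listed genes that no 1-symbol probe set represents are not analysed here. For counts at an unadjusted p below 0.05 the share of all genes was not counted, so those counts have no background. The fit was tested on simulated data made with each gene's replicate SD. It called 56% of planted log2 differences of size 1 and 88% of those of size 2, and 4% of its calls were not planted. The noise was independent and normal, with each SD taken from only 2 arrays per group. The number of planted differences was not matched to the number called in the data. These shares describe the simulation and need not hold for these arrays. A gene that did not pass may therefore still differ. Alternatives were a test of every probe set, the mean over a gene's probe sets, removal of dim genes, an intensity trend with robust prior, median-centred arrays, cyclic loess, a replicate block, a minimum of 2-fold, and leaving out each array.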

Additional observations from a re-analysis of the deposited data

How the results depend on the processing

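With centred arrays and cyclic loess, all 10 probe sets kept their difference within 1 SD of the replicates. The balanced block cannot move a difference, and with 2 arrays per group leaving out 1 cannot move it by more than the replicate SD, so those 2 settings say nothing about the stability of its size. The near-zero differences of Exoc3l2 changed sign with arrays left out, over -0.075 to 0.067 and -0.22 to 0.12, and the first also with cyclic loess (0.023), and the other 8 kept theirs. When probe sets were averaged per gene, Tnfaip2 differed by -1.63, Gm266 by -1.54 and Exoc3 by 0.14. With an array left out, the spread of the intact group was used for both, and the ranges were -3.05 to -2.76 for Exoc3l4, -2.57 to -2.37 for the brighter probe set of Gm266, and -1.53 to -1.46 and -2.93 to -2.83 for the probe set that stands for Tnfaip2 and its x_at probe set. Exoc3l4, Gm266 and Tnfaip2 were called in the other alternatives, and in the left-out fits as given above.

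Over all genes 750 were called, against 1579 with dim genes left out, 1941 with the trend and robust prior and 177 with the 2-fold minimum. Leaving out an array gave 6 calls without either DMSO array and 0 without either GSI array, 5 lower and 1 higher in the former. The replicate number as a block gave 217 calls. Same-numbered arrays deviated together weakly (correlation 0.0695) and the labels give no shared source, so they share only a number. With the block 0 exocyst, SNARE, TNF and NF-kappaB or neighbouring genes and 5 Notch targets were called. With every probe set tested, 0 exocyst, SNARE or neighbouring genes were called. With the 2-fold minimum, 0 of these and of the TNF list and 5 Notch targets were called. With each array left out, 0 of these 4 lists and 0 to 2 Notch targets were called.

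Other alternatives mostly called more. The Ral and Rab list had 2 genes called as probe set means, 4 with dim genes left out, 4 with the trend and robust prior, and 3 each with centred arrays and cyclic loess. The SNARE list had 0 called as probe set means, 3 with dim genes left out, 3 with the trend and 2 with centred arrays. The protrusion list had 1 as probe set means, Eps8. The TNF list had 5 with dim genes left out and 7 with the trend, the neighbours 4 with each. The causes of these changes were not tested.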

Other observations

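Runs of neighbouring genes that moved together were counted over all chromosomes. In the order of 16473 measured protein-coding genes in RefSeq, 5 runs of 3 or more consecutive genes were all lower with GSI and 7 runs were all higher (limma, adjusted p under 0.05 for each gene). Exoc3l4, Tnfaip2 and Gm266 were 1 of the 5. The other lower runs were Rbm17, Il2ra and Il15ra on chromosome 2, Aldh1b1, Igfbpl1 and Stra6l on chromosome 4, Ddx54, Rasal1 and Dtx1 on chromosome 5, and Mpzl2, Mpzl3, Scn2b and Scn4b on chromosome 9. These genes were named after their values were seen. The smallest difference in the run of Exoc3l4 was that of Tnfaip2 (-1.49). The smallest differences in the other lower runs were those of Rbm17 (-0.82), Igfbpl1 (-0.64), Ddx54 (-0.54) and Mpzl3 (-0.81). Among the 7 higher runs, also seen before they were named, 1 on chromosome 9 held larger differences. It was Slc6a20a (3.72), Lztfl1 (2.48) and Ccr9 (3.73). In the rest of the higher runs the smallest difference was 0.67 (Olig3) or less. Exoc3l4, Tnfaip2 and Gm266 were chosen with their differences known, so this comparison describes the choice and does not rank the runs. Genes without a probe set of their own were skipped in this order, so a run may enclose genes that were not analysed here.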
